A study of Homo sapiens with 54 samples.

Results

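The 53 protein-coding histone genes on human chromosome 6 between 26 and 28 Mb were compared with the 100 tRNA genes of the same stretch in ChIP-seq region lists from T47D breast cancer cells. The genes were taken from the RefSeq annotation of GRCh38.p14 by symbol (H1-, H2AC, H2BC, H3C or H4C), and they are 53 of 20033 protein-coding genes on chromosomes 1 to 22, X and Y. They comprise 6 linker histone (H1), 11 H2A, 14 H2B, 10 H3 and 12 H4 genes. T47D is an established human cell line of luminal breast cancer, with receptors for oestrogen and progesterone (PR). Cells received ethanol vehicle or R5020, a synthetic progestin, for 1 h, and chromatin was precipitated with 8 antibodies, against PR, Maf1, Brf1, POLR3A, POLR3C, POLR3G, POLR3GL and histone H3 acetylated at lysine 27 (H3K27Ac). Of 54 libraries, 48 were ChIP libraries in groups of 3 and 6 were inputs, and each antibody and treatment was represented by 1 deposited list made from 3 libraries. The labels name no genotype other than the line, and all groups share that 1 line.

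Replication-dependent histone genes encode the proteins that package DNA, and they are transcribed by RNA polymerase II in S phase, in clusters that assemble a nuclear compartment called the histone locus body. Their short mRNAs end in a stem-loop in place of a poly(A) tail. tRNA genes are transcribed by RNA polymerase III, which the initiation factor subunit Brf1 brings to the gene, and Maf1 is a repressor of that polymerase. POLR3A is the largest polymerase III subunit, POLR3C is a subunit of its initiation subcomplex, and POLR3G and POLR3GL are alternative forms of another subunit. H3K27Ac marks active promoters and enhancers, and PR is a transcription factor that is activated by progestins.

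The histone genes lay in 3 blocks. The first held 32 genes (chr6:26017032-26285534), the second 5 (chr6:27132316-27147562) and the third 16 (chr6:27807479-27893891). Their median span was 487 bp, and 49 of 53 were at most 3 kb long. The genes included 9 divergent H2A-H2B pairs, 18 genes in all. The annotation placed 1 histone gene within 1 kb of a tRNA gene and 3 within 10 kb, with a median distance of 42636 bp and a longest of 268738 bp. For most pairs, then, a region within 1 kb of one gene is not within 1 kb of the other.

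Promoter sequences were taken from RefSeq for 48 of the 53 genes, each covering 250 bases before and 50 after the start site on GRCh38.p14. Motifs were searched on both strands. The octamer ATTTGCAT, a site of POU2F1 (OCT1), was found in 8 of 10 H2A and 11 of 14 H2B promoters, in 1 of 8 H3 promoters and in none of the 6 H1 or 10 H4 promoters. Among all 27305 promoters of the table, 1.80% held it. The short sequence GGTCCG, part of a cell cycle element of H4 promoters, was found in 9 of 10 H4 promoters against 11.2% of all promoters. In all 9 it began between 47 and 44 bases before the start. TATAAA, the TATA box sequence, was present in 31 of 48 histone promoters against 12.0%, and CCAAT in 41 of 48 against 35.7%, with 3 of 10 among H4 genes. On the gene's strand TATAAA was in 3 of 6 H1, 6 of 10 H2A and 7 of 14 H2B promoters. For H3 and H4 these counts were 4 of 8 and 6 of 10. The remaining matches were on the other strand alone. The median first base per class lay at −31.5 to −30.0 from the start, and the furthest at −221 (H2B) and −223 (H4). H2A and H2B genes of a divergent pair share promoter sequence, and H3C4 and H2AC7 are listed with the same start, so these counts are not independent.

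For PR itself, the full progesterone response element was found in 1 of 48 histone promoters, that of H1-3, against 0.388% of all promoters. The shorter motif AGAACA, an arm of that element, was found in 17 of 48 against 14.9%. A match is a run of letters and not a measured site. Of the 36 genes with a promoter sequence and a PR region after R5020, 15 held AGAACA, and of the 12 without a PR region 2 did. For H3K27Ac with R5020 the counts were 15 of 40 with a region and 2 of 8 without. PR was listed at 38 of 45 histone genes with H3K27Ac, so these counts cannot tell whether the split is particular to PR. Promoters of 6 genes are shown, 5′ to 3′ on the gene's strand, with matches to the motifs above in capitals: the H4 genes with the strongest (H4C12) and a second vehicle PR region (H4C2), a divergent H2B promoter with a vehicle PR region (H2BC8), the H4 gene beside a tRNA gene (H4C8), the promoter with the full response element (H1-3) and a promoter without any region (H2BC11). All are on the minus strand and stop at the base before the start, apart from H1-3, which is shown to the end of the response element, 9 bases further.
H4C12 (chr6:27831561-27831810): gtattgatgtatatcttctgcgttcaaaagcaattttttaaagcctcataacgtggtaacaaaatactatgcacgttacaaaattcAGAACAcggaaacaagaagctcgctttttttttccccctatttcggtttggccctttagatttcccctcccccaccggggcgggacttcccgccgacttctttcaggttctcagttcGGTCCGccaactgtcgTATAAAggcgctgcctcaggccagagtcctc
H4C2 (chr6:26027284-26027533): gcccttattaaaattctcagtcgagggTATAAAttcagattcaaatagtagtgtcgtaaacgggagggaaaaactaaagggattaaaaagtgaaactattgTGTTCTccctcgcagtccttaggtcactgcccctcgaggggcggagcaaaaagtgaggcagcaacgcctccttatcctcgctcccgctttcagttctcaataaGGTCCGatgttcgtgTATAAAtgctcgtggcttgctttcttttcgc
H2BC8 (chr6:26216689-26216938): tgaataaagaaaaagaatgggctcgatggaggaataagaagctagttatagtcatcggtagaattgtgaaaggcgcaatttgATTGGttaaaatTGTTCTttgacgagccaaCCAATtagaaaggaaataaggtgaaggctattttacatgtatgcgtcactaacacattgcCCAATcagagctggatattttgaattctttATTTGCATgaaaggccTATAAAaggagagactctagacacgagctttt
H4C8 (chr6:26285535-26285784): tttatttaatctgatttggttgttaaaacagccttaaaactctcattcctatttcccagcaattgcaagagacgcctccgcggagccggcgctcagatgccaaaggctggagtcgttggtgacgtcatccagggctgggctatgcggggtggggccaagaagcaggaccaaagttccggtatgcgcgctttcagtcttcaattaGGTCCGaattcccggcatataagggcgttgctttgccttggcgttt
H1-3 (chr6:26234979-26235237): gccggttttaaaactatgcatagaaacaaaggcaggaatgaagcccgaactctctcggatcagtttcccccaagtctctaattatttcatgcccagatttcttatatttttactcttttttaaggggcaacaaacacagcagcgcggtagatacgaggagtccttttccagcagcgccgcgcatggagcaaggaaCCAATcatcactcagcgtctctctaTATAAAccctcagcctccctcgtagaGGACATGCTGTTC
H2BC11 (chr6:27132796-27133045): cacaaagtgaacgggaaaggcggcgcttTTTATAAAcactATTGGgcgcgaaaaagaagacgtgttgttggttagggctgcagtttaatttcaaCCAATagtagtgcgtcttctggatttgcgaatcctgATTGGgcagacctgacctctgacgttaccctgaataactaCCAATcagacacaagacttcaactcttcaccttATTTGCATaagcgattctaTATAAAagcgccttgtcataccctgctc

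H4C12 and H4C2 show the TATA box 31 bases before the start, with GGTCCG just upstream of it. H4C8 holds GGTCCG 46 bases before the start but no exact TATAAA. H2BC8 and H2BC11 each hold the octamer, the TATA box and CCAAT; H2BC8 had a region in 8 of 16 lists and H2BC11 in none. In H1-3 the match to the full response element pattern begins 4 bases before the start and runs across it.

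Most of the 53 genes had H3K27Ac, POLR3G and, after R5020, PR, and few had Brf1, POLR3A or POLR3C. A gene was counted when at least 1 listed region lay within 1 kb of its span. H3K27Ac was listed at 45 of 53 histone genes in each treatment, PR at 8 with vehicle and 39 with R5020, and Maf1 at 15 and 29. POLR3G was listed at 43 and 37, Brf1 at 1 and 1, POLR3A at 2 and 1, POLR3C at 1 and 1, and POLR3GL at 0 and 0. Among the neighbouring tRNA genes the order was different: POLR3A was listed at 86 and 83 of 100 and Brf1 at 67 and 71. Because there is 1 list per condition, no difference below could be set against a spread between replicates, no p-value is given, and sequencing depth is unknown. Intervals are 95% Wilson intervals for shares and Newcombe intervals for differences. They cover the counting of genes only, and neighbouring genes that share a region are not independent.

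**Figure D1:**
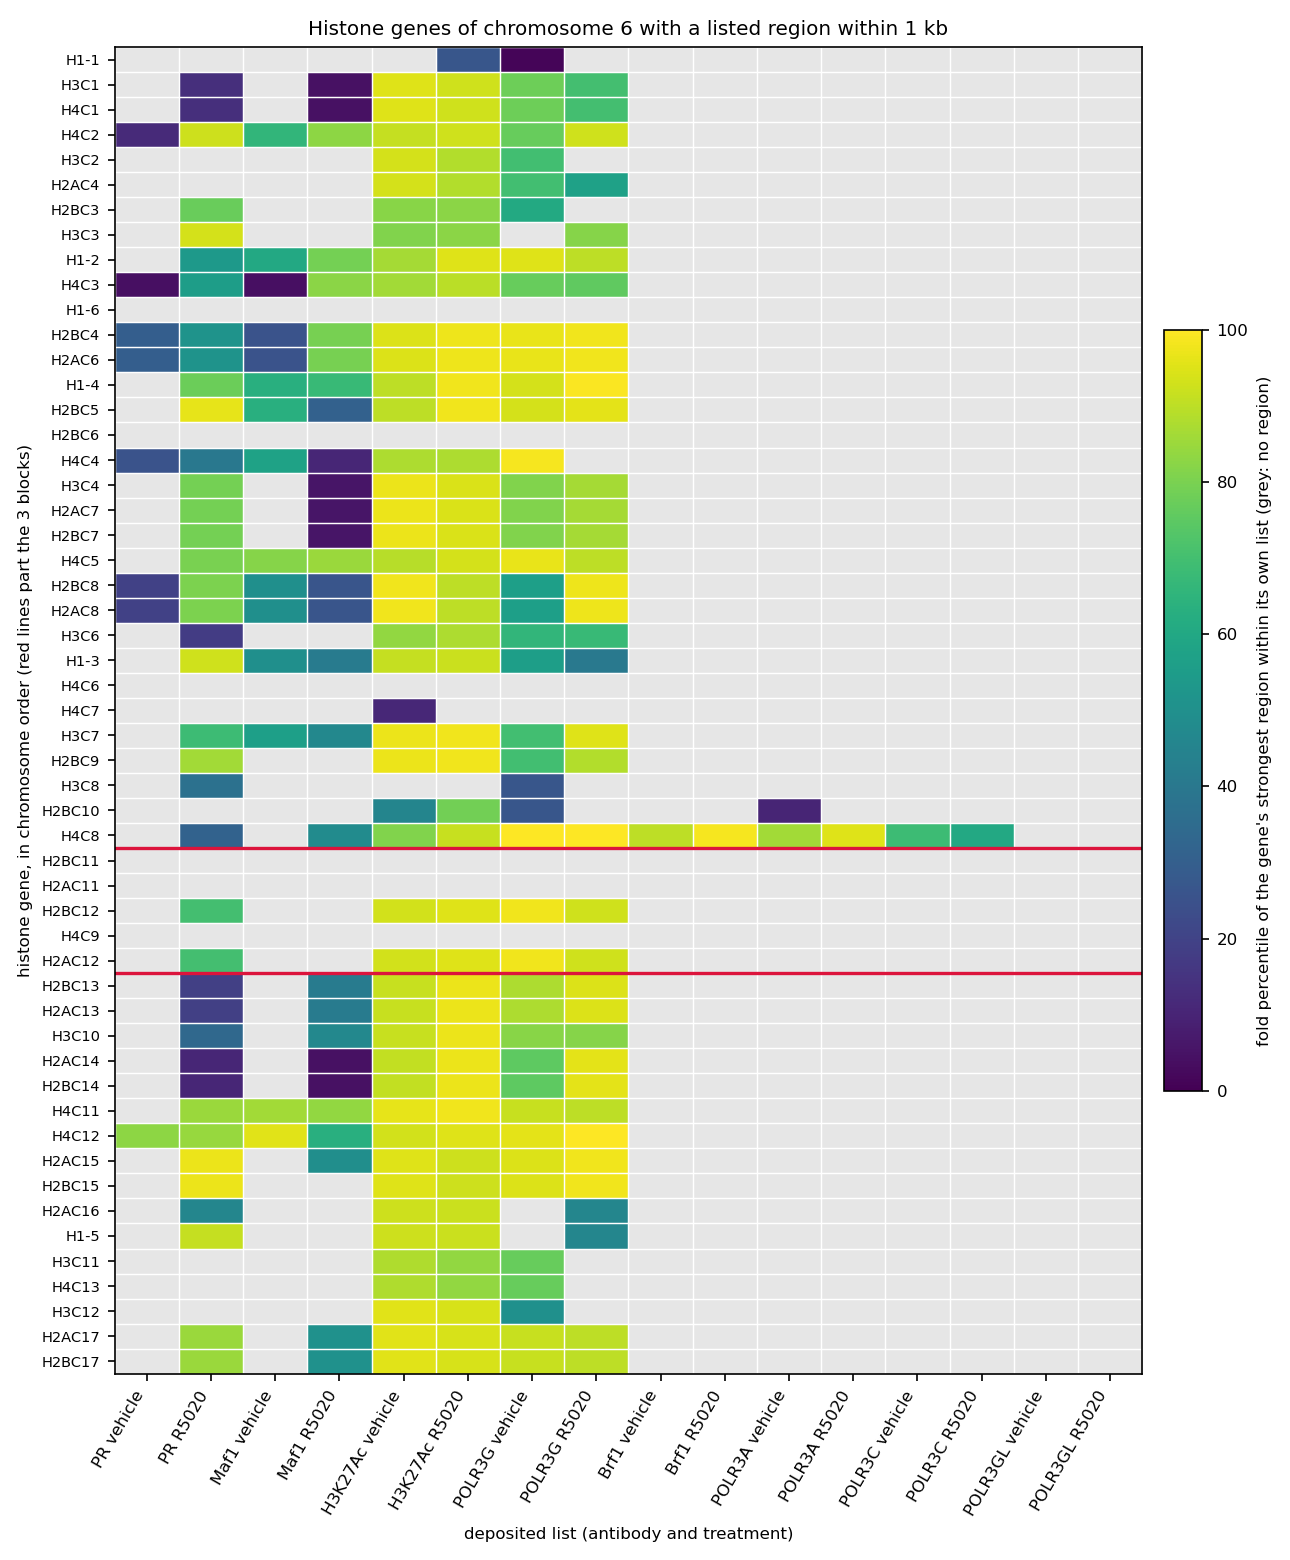
Each row is 1 of the 53 histone genes in chromosome order and each column 1 of the 16 deposited lists. Colour gives the percentile, within its own list, of the fold enrichment of the region with the highest −log10 q near the gene, and grey marks genes with no region within 1 kb. H3K27Ac fills 45 of 53 rows in each treatment, PR goes from 8 to 39 rows, and the Brf1, POLR3A and POLR3C columns are empty apart from H4C8 and 1 vehicle POLR3A region at H2BC10.

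**Figure D2:**
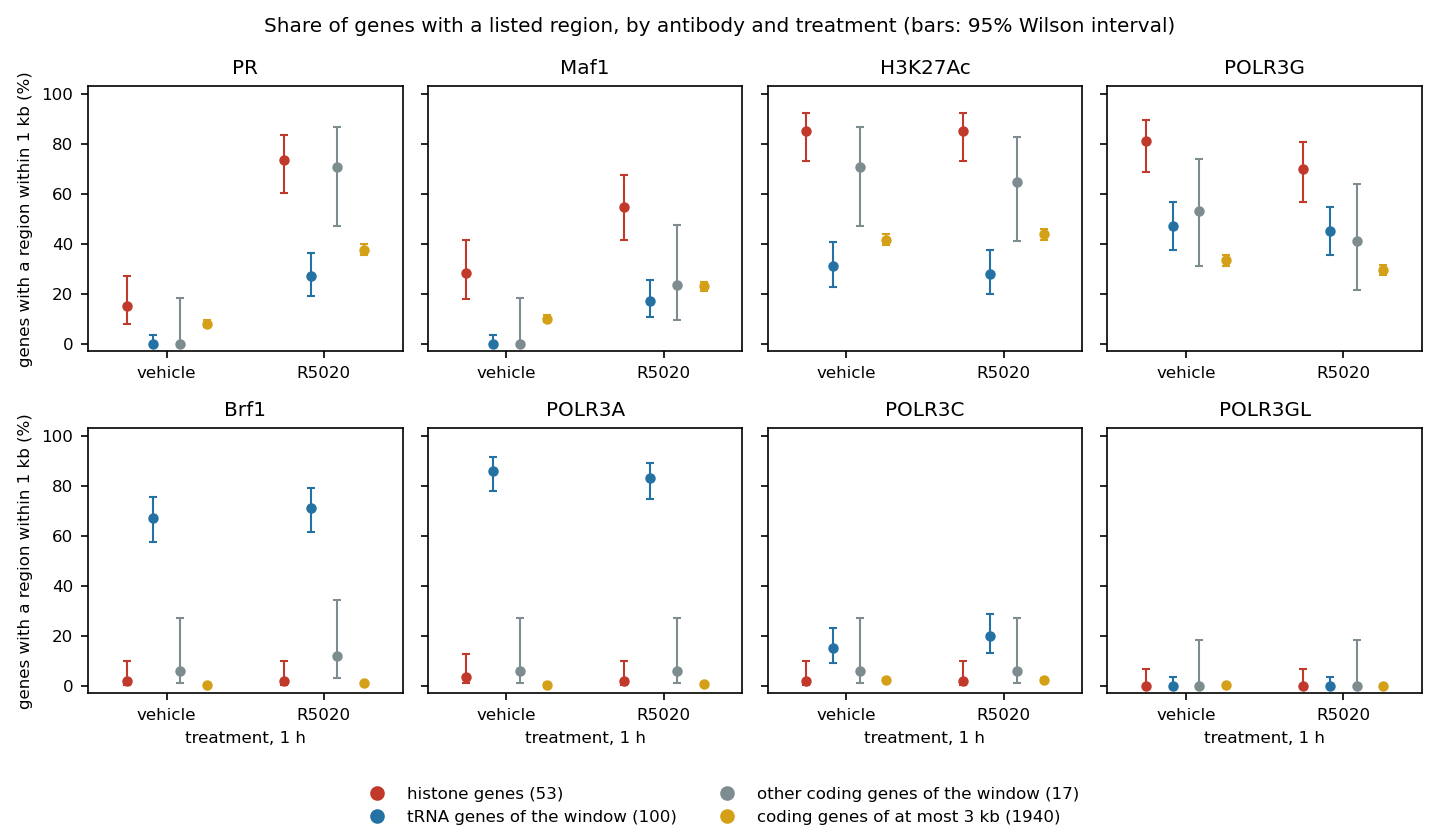
Percentage of genes with a listed region within 1 kb, by antibody and treatment, for the 53 histone genes, the 100 tRNA genes and 17 other coding genes of the window and the 1940 coding genes of at most 3 kb, with 95% Wilson intervals as bars. Histone genes lie above tRNA genes for PR, Maf1, H3K27Ac and POLR3G and far below them for Brf1 and POLR3A.

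H3K27Ac was listed near most of the histone genes in both treatments. It was listed at 84.9% of the histone genes (72.9 to 92.1%) with vehicle and again with R5020, against 75.1% and 75.9% of all coding genes and 41.6% and 43.8% of coding genes of at most 3 kb. Among tRNA genes it was listed at 31.0% and 28.0%, a difference from histone genes of 53.9 percentage points (38.6 to 64.9) with vehicle and 56.9 (41.6 to 67.6) with R5020. The regions were strong and wide. Their median fold enrichment, as the authors' list gives it, was 9.92 with vehicle and 9.61 with R5020, at the 88.1st and 89.4th percentile of the list, and their median width was 2527 and 1276 bp against 475 and 404 bp over the whole lists. A region often lay within 1 kb of several genes, up to 3 with vehicle and 5 with R5020.

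By class, H3K27Ac with vehicle was listed at 4 of 6 H1, 10 of 11 H2A, 12 of 14 H2B, 9 of 10 H3 and 10 of 12 H4 genes. The highest −log10 q with vehicle belonged to the region over H3C1 and H4C1, neighbouring H3 and H4 genes (chr6:26019795-26023549, fold 14.8, −log10 q 89.8). Next came the region over the divergent pair H2BC4 and H2AC6 (fold 14.7, −log10 q 76.7). The strongest at an H1 gene was that at H1-4 (fold 11.1, −log10 q 65.1). With R5020 the first places went to H4C12 (fold 15.3, −log10 q 80.2), H4C11 (fold 19.5, −log10 q 79.1), H1-4 with H2BC5 (fold 20.0, −log10 q 78.4) and H3C7 (fold 20.0, −log10 q 78.4). At H2AC6 the R5020 region had a fold of 18.8 and a −log10 q of 75.0. The classes therefore overlapped at their upper ends.

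The lowest values per class ranged widely. With vehicle they were those at H1-3 (fold 11.8, −log10 q 38.8), H2AC14 (11.6, 42.4), H2BC10 (3.56, 6.70), H3C3 (6.68, 22.8) and H4C7 (2.72, 1.97). With R5020 they were those at H1-1 (3.20, 3.67), H2AC4 (8.92, 29.0), H2BC10 (5.44, 9.53) and H3C11 and H4C13, which share 1 region (6.55, 18.4). Only H4C7 had a region with vehicle alone and only H1-1 with R5020 alone, that is 1.89% of the genes in each direction against 1.80% and 2.64% of all coding genes. A group of 7 genes had no H3K27Ac region in either treatment: H1-6, H2BC6, H4C6, H3C8, H2BC11, H2AC11 and H4C9. H1-6 encodes a testis-specific linker histone. By block, H3K27Ac was listed at 16 of 16 genes in the third and 27 of 32 in the first. In the second it was listed at 2 of 5, the divergent pair H2BC12 and H2AC12.

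PR was listed near few histone genes with vehicle and near most after R5020. With vehicle it was listed at 15.1% (7.85 to 27.1%) against 18.4% of all coding genes, and with R5020 at 73.6% (60.4 to 83.6%) against 80.7%. The histone genes that had PR with R5020 alone numbered 31, or 58.5% of the 53, and none had it with vehicle alone, where the shares of all coding genes were 62.3% and 0.0799%. The gain of 58.5 percentage points (40.7 to 70.8) is near that background and is not a result about the histone genes. The whole list grew from 6663 to 173129 regions. Taken to equal numbers of top regions, 0 of 53 histone genes had a PR region with R5020 and the difference became −15.1 points. Coding genes of at most 3 kb, which give a region less room, had PR at 8.09% and 37.7%. Counted within 1 kb of the start site in place of the span, PR was listed at 14.6% and 70.8% of 48 histone genes against 12.7% and 57.2% of 15842 coding genes.

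With R5020, PR was listed at 27 of 100 tRNA genes and 12 of 17 other coding genes of the window. The histone genes exceeded the tRNA genes by 46.6 points (30.4 to 59.2) and differed from the other coding genes by 3.00 points (−17.8 to 28.7). With vehicle, PR was listed at 0 tRNA genes and 0 other coding genes. Of only 8 vehicle PR regions in the 2 Mb window, 6 (75.0%) lay within 1 kb of a histone gene. Over the whole list, 66.3% of the vehicle PR regions lay within 1 kb of a coding gene.

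The 5 histone genes with the strongest PR regions after R5020 all lacked one with vehicle. The region between H4C12 and H2AC15 that counted for H2AC15 and H2BC15, a divergent pair, had the highest values (chr6:27836317-27837684, fold 38.3, −log10 q 259). Its summit lay 1435 bp downstream of the H2AC15 start, past the end of that gene. The region in H2BC5 followed (chr6:26158124-26159284, fold 34.6, −log10 q 240, summit 911 bp after the start). At H1-3, the linker histone gene with the match to the response element pattern, the region had a fold of 26.9 and a −log10 q of 223. Its summit was the start base itself (chr6:26234376-26235455, distance 0 bp). H3C3 had a fold of 28.3 and a −log10 q of 210, with the summit 207 bp before the start. These values reached the 92.9th to 97.2nd percentile of the R5020 list, while the median over the 56 regions at histone genes was at the 51.5th.

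The vehicle PR regions were weak apart from one. The 8 genes were H4C2, H4C3, H2BC4, H2AC6, H4C4, H2BC8, H2AC8 and H4C12, served by 6 regions. H4C12 had a fold of 6.13 and a −log10 q of 14.1. H4C2 had 2.95 and 2.64, H4C3 2.58 and 2.01, and H4C4 3.38 and 3.24. The region shared by H2BC4 and H2AC6 had 3.49 and 3.25, and that shared by H2BC8 and H2AC8 had 3.22 and 3.64. Their median fold stood at the 22.4th percentile of the list, and at a −log10 q of at least 5 only H4C12 was left. All 6 summits lay inside a histone gene, and all 6 regions overlapped a PR region of the R5020 list, as did 91.6% of the whole vehicle list. In the R5020 list the fold at H4C12 was 16.2, at H4C2 26.3, at H4C3 6.54, at H4C4 5.03 and at H2BC8 13.5. Folds of different lists are not on a common scale.

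Maf1 was listed near histone genes more often than near coding genes in general when no hormone was given. With vehicle it was listed at 28.3% of the histone genes (18.0 to 41.6%) against 11.7% of all coding genes, 9.95% of those of at most 3 kb, 0 of 100 tRNA genes and 0 of 17 other coding genes of the window. Counted from start sites the shares were 29.2% (18.2 to 43.2%) and 8.04%. Of 17 vehicle Maf1 regions in the window, 16 (94.1%) lay at histone genes, where 76.9% of the whole list lay within 1 kb of a coding gene. The difference from tRNA genes was 28.3 points (17.3 to 41.6), and at a −log10 q of at least 5 it was 15.1 points, from 8 of 53 genes.

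With R5020, Maf1 was listed at 54.7% of the histone genes (41.5 to 67.3%) against 46.3% of all coding genes, 23.0% of short ones, 17 tRNA genes and 4 other coding genes. From start sites the shares were 52.1% and 34.7%. The histone genes exceeded the tRNA genes by 37.7 points (21.9 to 51.7) and the other coding genes by 31.2 points (lower bound of the interval 4.00). The latter difference was 12.3 points (−14.1 to 31.7) at a −log10 q of at least 5 and 20.1 points (−6.10 to 37.8) within 200 bp, and both of these intervals include 0. Maf1 was listed at 15 histone genes in both treatments, at 14 (26.4%) with R5020 alone and at 0 with vehicle alone, against 34.8% and 0.235% of all coding genes. Of the 16 vehicle Maf1 regions at histone genes, 11 overlapped a Maf1 region of the R5020 list (68.8%, 44.4 to 85.8%), compared with 91.5% of the whole vehicle list. The gain of 26.4 points (7.65 to 42.7) is again no larger than the background of a list that grew from 3049 to 22683 regions, and with equal numbers of top regions it became −28.3 points. Within 200 bp it was 13.2 points (−4.38 to 29.7), an interval that includes 0. The genes with R5020 alone and the highest −log10 q were H2BC17 and H2AC17, which share a region (fold 4.32, −log10 q 7.92), H4C8 (4.18, 7.03), H2AC15 (4.26, 6.10) and H3C10 (4.14, 5.58).

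By −log10 q, the strongest Maf1 regions near the histone genes were at H4 genes. With vehicle the first 4 places by −log10 q were held by H4C12 (chr6:27831221-27831725, fold 8.91, −log10 q 27.9), H4C11 (fold 5.82, −log10 q 13.2), H4C5 (fold 5.34, −log10 q 9.83) and H4C2 (fold 4.38, −log10 q 6.88), followed by H1-4 (4.26, 6.04). With R5020 all 5 first places were held by H4 genes: H4C12 (fold 4.89, −log10 q 21.0), H4C5 (7.30, 18.8), H4C3 (6.82, 18.0), H4C11 (7.08, 17.8) and H4C2 (6.91, 16.9). H4C12 therefore led the histone genes in both lists by −log10 q. With R5020, 4 other H4 genes had a larger fold. So did H2BC4 and H2AC6, which share a region (6.31), H1-2 (6.28) and H1-4 (5.13). By class, vehicle Maf1 was listed at 6 of 12 H4, 3 of 6 H1, 3 of 14 H2B, 2 of 11 H2A and 1 of 10 H3 genes. The intervals of these shares overlap, from 25.4 to 74.6% for H4 and from 1.79 to 40.4% for H3. In the second block 0 of 5 genes had Maf1 in either treatment.

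PR and Maf1 regions were often listed near the same genes. Each of the 8 genes with PR under vehicle, served by 6 regions, also had Maf1 under vehicle. The matching share of all coding genes was not counted. At H2BC4, H2AC6, H2BC8 and H2AC8 the vehicle PR and Maf1 regions did not overlap. Of the 6 vehicle PR regions, 4 overlapped a vehicle Maf1 region (66.7%, 30.0 to 90.3%), compared with 24.4% over the whole PR list. Their summits were 19 bp apart at H4C2, 5 bp at H4C3, 2 bp at H4C4 and 60 bp at H4C12, all 4 of them H4 genes. In the other direction, 4 of the 16 vehicle Maf1 regions at histone genes overlapped a vehicle PR region (25.0%, 10.2 to 49.5%), compared with 53.3% over the whole Maf1 list. With R5020, Maf1 was listed at 29 of the 39 histone genes with PR and at 0 of the 14 without, where all coding genes gave 55.7% and 7.26%. Of the 28 Maf1 regions at histone genes with R5020, 27 overlapped a PR region (96.4%, 82.3 to 99.4%) against 82.1% of the whole Maf1 list.

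Both factors were listed mostly where acetylation was. With R5020, PR was listed at 38 of 45 histone genes with H3K27Ac and 1 of 8 without, which was H3C8, and Maf1 at 29 of 45 and 0 of 8. All coding genes gave 92.2% and 44.4% for PR and 59.7% and 4.29% for Maf1. Among tRNA genes PR was listed at 23 of 28 genes with H3K27Ac and 4 of 72 without, and Maf1 at 17 of 28 and 0 of 72. Histone and tRNA genes with H3K27Ac had PR after R5020 at 84.4% (71.2 to 92.3%) and 82.1% (64.4 to 92.1%), intervals that overlap widely.

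Summits lay inside a histone gene for 35 of 56 PR and 20 of 28 Maf1 regions with R5020 and for 8 of 16 Maf1 regions with vehicle. Distances were taken to the nearest of the 48 listed start sites, so regions at the 5 genes without one count from a neighbour. For Maf1 with R5020 the median distance was 100 bp, with 16 of 28 summits within 500 bp after a start and 3 within 500 bp before one. For Maf1 with vehicle the median was 518 bp, and 8 of 16 summits were more than 500 bp from a start. For PR with R5020 the median was 376 bp, with 24 of 56 after and 9 before. For H3K27Ac the medians were 387 bp with vehicle and 370 bp with R5020.

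**Figure D3:**
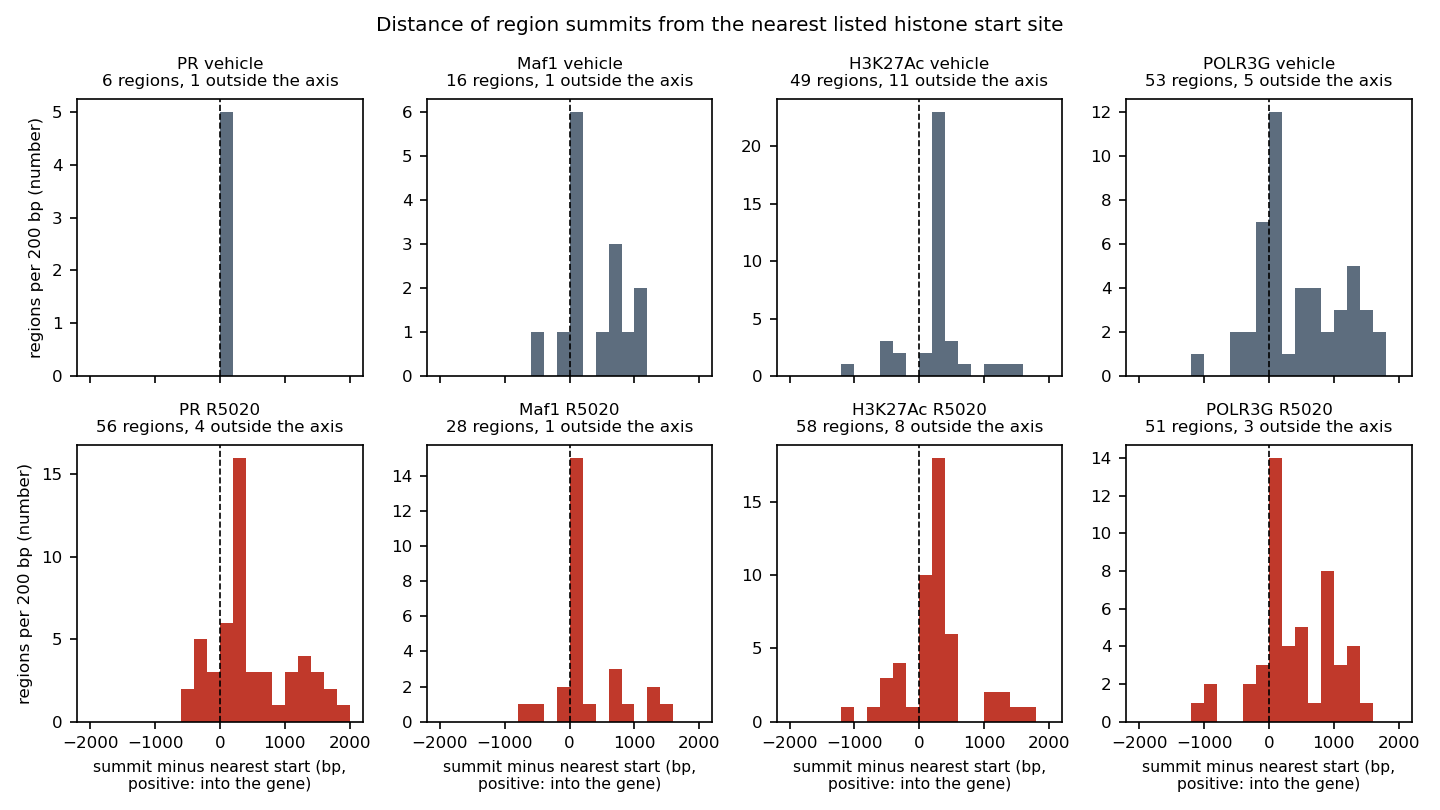
Number of region summits per 200 bp by distance from the nearest of 48 histone start sites in bp, positive into the gene, for 4 antibodies and both treatments; the dashed line is the start. The Maf1 summits after R5020 and the vehicle PR summits pile up just after the start, and the H3K27Ac summits somewhat further in.

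Brf1 and POLR3A regions were listed at 1 or 2 histone genes and at most of the tRNA genes around them. Brf1 was listed at 1 of 53 histone genes (1.89%, 0.334 to 9.94%) in each treatment, against 0.469% and 1.64% of all coding genes. POLR3A was listed at 2 (3.77%) with vehicle and 1 (1.89%) with R5020, against 0.864% and 0.978%. With R5020 the difference from tRNA genes was −69.1 points (−77.2 to −56.6) for Brf1 and −81.1 (−87.4 to −69.4) for POLR3A. POLR3C was listed at 1 histone gene in each treatment and at 15 and 20 tRNA genes, against 1.92% and 2.01% of all coding genes. POLR3GL was listed at no histone gene and no tRNA gene of the window, against 0.913% and 0.669% of all coding genes. For POLR3C, POLR3G and POLR3GL the treatment comparison rests on sample titles, because 4 libraries titled R5020 are tagged as ethanol: 2 of POLR3C, 1 of POLR3G and 1 of POLR3GL.

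The histone gene with Brf1, POLR3A and POLR3C was H4C8 (chr6:26285126-26285534), an H4 gene at the end of the first block. The tRNA gene TRX-CAT1-2, an initiator methionine tRNA gene (chr6:26286526-26286597), lies 991 bp upstream. The POLR3A region had a fold of 47.1 with vehicle (chr6:26286188-26286916, −log10 q 408) and 67.5 with R5020 (chr6:26286305-26286862, −log10 q 409). Both summits were inside the tRNA gene, and the regions ended 653 and 770 bp short of H4C8. Brf1 had a fold of 41.9 (−log10 q 365) and 86.7 (−log10 q 459), with summits 12 and 7 bp from the tRNA gene and 978 and 983 bp from H4C8. POLR3C had a fold of 4.18 and 3.76, with both summits in the tRNA gene. The summits place these regions at the tRNA gene, and within 200 bp no histone gene had a Brf1 or POLR3C region.

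The POLR3G region at the same place was wide enough to touch both genes. It ran over chr6:26285209-26287163 with vehicle (fold 9.45, −log10 q 41.5) and chr6:26285338-26287194 with R5020 (fold 9.67, −log10 q 50.2), at the 99.9th percentile of both lists and with summits in the tRNA gene. PR and Maf1 at this locus were on the histone side. With R5020 the PR region had its summit inside H4C8, 1007 bp from the tRNA gene (fold 4.46, −log10 q 9.45). The Maf1 summit was 57 bp from H4C8 and 933 bp from the tRNA gene (fold 4.18, −log10 q 7.03). The vehicle H3K27Ac region spanned both genes with its summit in H4C8 (fold 6.61), and with R5020 its summit lay between them (fold 11.5).

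The other close pairs were further apart. H2BC17 and H2AC17, at the end of the third block, lie 8601 and 9307 bp from TRX-CAT1-7, and H2AC12 and H2BC12 lie 10564 and 11268 bp from TRH-GTG1-5, a histidine tRNA gene. All 4 histone genes and both tRNA genes had H3K27Ac and POLR3G in both treatments and PR with R5020 alone. Brf1 and POLR3A were listed at both tRNA genes in both treatments and at none of the 4 histone genes. Maf1 with R5020 was listed at H2BC17 and H2AC17 and at neither tRNA gene. The remaining POLR3A region was a weak one with vehicle at H2BC10 (chr6:26273516-26273777, fold 3.31, −log10 q 2.95, 10.2nd percentile), an H2B gene 13113 bp from the nearest tRNA gene.

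**Figure D4:**
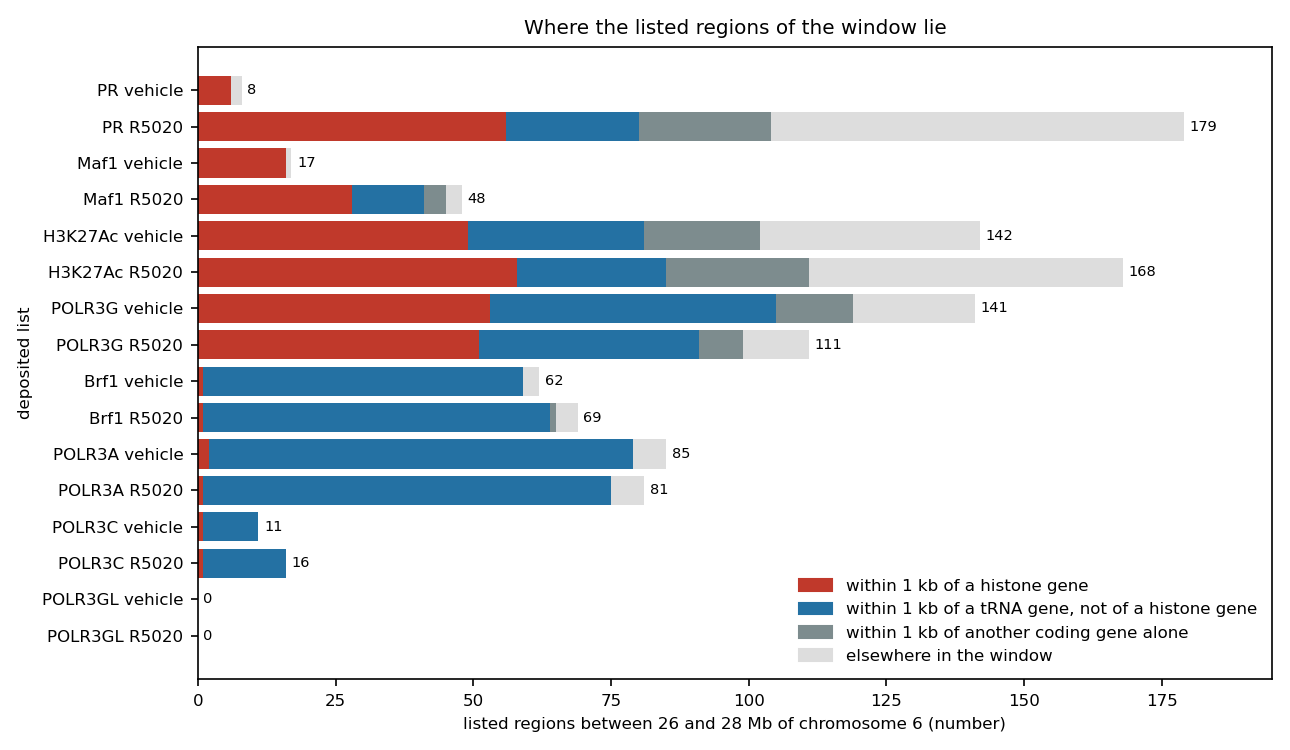
Number of listed regions between 26 and 28 Mb of chromosome 6 in each list, split by position; the total stands at the end of each bar. Red regions lie within 1 kb of a histone gene (the region near both H4C8 and TRX-CAT1-2 is counted there), and they make up 16 of 17 vehicle Maf1 regions but 1 of 62 vehicle Brf1 regions.

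POLR3G was listed at far more histone genes than the other polymerase III antibodies, but its lists were also far longer. They held 58424 regions with vehicle and 46875 with R5020, against 370 and 1173 for Brf1 and 688 and 1047 for POLR3A. The POLR3C lists held 673 and 699 regions and the POLR3GL lists 1104 and 603. POLR3G was not compared with these antibodies at equal list length. It was listed at 81.1% of the histone genes (68.6 to 89.4%) with vehicle and 69.8% (56.5 to 80.5%) with R5020, against 53.5% and 47.3% of all coding genes and 33.4% and 29.6% of short ones. Among tRNA genes it was listed at 47 and 45 of 100, so the histone share was higher by 34.1 points (18.3 to 46.7) with vehicle and 24.8 (8.28 to 39.0) with R5020. At a −log10 q of at least 5 the difference was 9.17 points (−6.94 to 25.1) with vehicle, from 25 histone and 38 tRNA genes, and 10.1 points (−6.17 to 25.9) with R5020, from 26 and 39. Both intervals include 0. Of 51 histone genes without POLR3A under vehicle, 41 had POLR3G, and of 14 tRNA genes without POLR3A none had. All coding genes without POLR3A gave 53.2%.

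The POLR3G regions at histone genes coincided with acetylation. With vehicle 49 of 53 of them overlapped an H3K27Ac region (92.5%, 82.1 to 97.0%) and with R5020 50 of 51, against 53.6% and 61.3% over the whole POLR3G lists. POLR3G was listed at 41 of 45 histone genes with H3K27Ac and 2 of 8 without it under vehicle, and at 37 of 45 and 0 of 8 with R5020. All coding genes gave 69.7% and 4.55% with vehicle and 61.3% and 3.03% with R5020. Among tRNA genes POLR3G was listed at 30 of 31 and 17 of 69 with vehicle and at 27 of 28 and 18 of 72 with R5020. The split by acetylation is therefore not particular to the histone genes. The median fold was 3.06 with vehicle and 3.36 with R5020, against 3.45 and 4.34 near tRNA genes. After H4C8, the highest −log10 q with vehicle were at H4C4 (fold 4.79, −log10 q 11.2), H2BC12 and H2AC12 (4.53, 9.83) and H2BC4 (4.26, 8.57). With R5020 they were at H4C12 (6.03, 16.9), H1-4 (5.33, 13.0) and H2BC8 and H2AC8 (4.29, 8.90).

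Between treatments POLR3G was listed at 34 histone genes in both, at 9 (17.0%) with vehicle alone and at 3 (5.66%) with R5020 alone, against 9.46% and 3.30% of all coding genes. The difference of −11.3 points (−27.0 to 5.11) has an interval that includes 0. The 9 were H1-1, H3C2, H2BC3, H4C4, H3C8, H2BC10, H3C11, H4C13 and H3C12, and the 3 were H3C3, H2AC16 and H1-5. When a −log10 q of 5 or more was required, 25 histone genes had a region with vehicle and 26 had one with R5020.

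A total of 6 genes had no region in any of the 16 lists: H1-6, H2BC6, H4C6, H2BC11, H2AC11 and H4C9. The share of all coding genes without a region in any list was not counted, so this number has no background. H2BC11 and H2AC11 are a divergent pair of the second block. H4C9 lies inside the annotated span of H2BC12, which itself had PR, H3K27Ac and POLR3G around its start. In divergent pairs PR was listed after R5020 at 16 of 18 genes and Maf1 at 13 of 18, against 23 and 16 of the 35 genes outside pairs. For PR these are 88.9% and 65.7%, where all coding genes gave 80.7%. For Maf1 they are 72.2% and 45.7%, where all coding genes gave 46.3%. The members of a pair lie within 500 bp of each other and share regions. For each antibody the intervals of the shares in and outside pairs overlap.

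Histone genes elsewhere in the genome and regulators of histone expression were counted in the same way. Of 15 replication-dependent histone genes outside the window, H3K27Ac was listed at 15 in each treatment, PR at 11 with vehicle and 13 with R5020, Maf1 at 9 and 13, POLR3G at 14 and 14, and Brf1 and POLR3A at 0. H2AC18, H2AC21 and H2BC21 of chromosome 1 were among those with vehicle PR and Maf1. POLR3C was listed at 4 and 3 of these 15. Neighbouring genes that share a region are not independent here either. Over all coding genes H3K27Ac was listed at 75.1% with vehicle and 75.9% with R5020, and PR at 18.4% and 80.7%. The shares were 11.7% and 46.3% for Maf1, 53.5% and 47.3% for POLR3G and 1.92% and 2.01% for POLR3C. For Brf1 they were 0.469% and 1.64%, and for POLR3A 0.864% and 0.978%. Of 13 regulators of histone gene transcription and mRNA 3′ processing, PR was listed at 3 and 13, Maf1 at 1 and 10 and H3K27Ac at 13 and 13. SLBP, which encodes the stem-loop binding protein, was the only one with vehicle Maf1, while NPAT, the coactivator of the histone locus body, had PR and Maf1 with R5020 alone.

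The lists held between 370 and 173129 regions, with a lowest −log10 q of 1.30. The titles number the libraries of every antibody and treatment, and the inputs, from 1 to 3. They do not say whether the POLR3C, POLR3G and POLR3GL libraries were made together with the others. As a check of the cell type, H3K27Ac was listed at 8 of 8 luminal markers with vehicle and 7 of 8 with R5020, TFF1 being the exception. It was listed at 3 of 5 basal or mesenchymal markers in each treatment, VIM, ZEB1 and TP63, and not at KRT5 and KRT14. All coding genes gave 75.1% and 75.9%, so a check with this few markers cannot settle the cell type.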

How the data were processed

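T47D libraries were grouped by their titles. The authors deposited 16 lists in narrowPeak layout; how the 3 libraries behind each were combined is not given in the sources used here. The submitters' processing notes name cutadapt, Bowtie2, MACS2 and hg38, without versions. In each deposited list the fold enrichment is a ratio over the caller's background and the q-value is given as −log10; both are the authors' values and were used only within a list. Each deposited row also holds the offset of its summit.

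Gene spans came from RefSeq GRCh38.p14, the assembly of hg38. Rows off chromosomes 1 to 22, X and Y (1872) were left out. Named genes were those with the highest −log10 q per list, or the highest and lowest per class for H3K27Ac, those listed in 1 treatment alone where few, genes without H3K27Ac, and the closest tRNA neighbours. Members, gene lists, motifs and markers were chosen with earlier results of these data known. Code was tested on simulated data (Python 3.11.15, numpy 2.4.6, pandas 2.3.3, scipy 1.17.1). Alternatives were distances of 200 bp and 5 kb, a −log10 q of at least 5, equal numbers of top rows, and leaving out rows near tRNA genes or H1-6. Numbered tRNA genes alone, start sites in place of spans and the vehicle comparisons with tRNA genes were chosen after seeing the data. The list of replication-independent histone genes is not reported here.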

Additional observations from a re-analysis of the deposited data

How the results depend on the processing

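Of 142 alternative values for 22 differences, 129 stayed within the 95% interval of the main value, 10 moved outside it and 3 took the opposite sign where that interval excluded 0. A further 3 took the opposite sign where it included 0: the POLR3G difference between treatments (1.89 points at a −log10 q of at least 5) and PR with R5020 against other coding genes (−4.55 within 200 bp, −5.88 with equal numbers of top regions). Counting within 5 kb gave 73.6 points for the R5020 gain of PR at histone genes (58.5 at 1 kb). It gave 53.5 points for Maf1 with R5020 against tRNA genes (37.7) and 51.9 against the other coding genes (31.2). It gave −83.1 points for Brf1 (−69.1) and −91.1 for POLR3A (−81.1) with R5020 against tRNA genes. Equal numbers of top regions turned the R5020 gain to −15.1 points for PR and −28.3 for Maf1, and the Maf1 difference from other coding genes to −5.88. They left 0 points between histone and tRNA genes for PR and 0 for Maf1 with R5020; by construction they keep only the strongest part of the longer list. A −log10 q of at least 5 lowered the vehicle differences from tRNA genes to 1.89 points for PR, 15.1 for Maf1 and 9.17 for POLR3G; the cause was not tested. No paired analysis was possible because each antibody and treatment has 1 list without replicate numbers, and for the same reason no replicate could be left out. Depth is unknown, so longer lists cannot be told apart from deeper libraries.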
